A study of Mus musculus with 12 samples.

Results

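The enzymes that modify and cross-link collagen were examined in mouse scars, as the alpha subunits of collagen prolyl 4-hydroxylase (P4ha1, P4ha2 and P4ha3), the lysyl hydroxylases (Plod1, Plod2 and Plod3) and 4 of the lysyl oxidases (Lox, Loxl1, Loxl2 and Loxl3). These 10 genes were taken by symbol from the 35976 genes listed in each library. All 10 were listed once, and all 10 were among the 18853 genes that passed the filter on low counts. Their counts lay between 441 and 54390 per library, so none was near the limit of detection.

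Male mice on a C57BL/6J background, aged 8 to 12 weeks, received a split wound of 1.5 cm in the back skin, and 6 days later a plastic device was placed on it. For traction the device was lengthened daily by 1 mm until it had gained 8 mm. A sham scar carried the same device, which stayed at its length. Both treatments were given to wild-type Tem1WT/WT mice and to Tem1lacZ/lacZ mice, in which the single exon of Tem1 is replaced by a lacZ reporter throughout the animal, so that no one cell type is targeted. This gave 4 groups of 3 libraries, each from one part of a whole scar, so that a difference cannot be assigned to one cell type of the scar. In such bulk tissue, fewer cells of a type and less RNA per cell cannot be told apart.

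Library totals were 41536788 to 64644293 counts. The targeted gene, listed as Cd248, had between 92.4 and 337 CPM (the counts-per-million scale, TMM-normalized) in the 6 Tem1WT/WT libraries, and 0 to 0.248 CPM in the 6 Tem1lacZ/lacZ libraries. All 8 fibroblast markers were detected in every library. The neutrophil markers summed to 6720 CPM in replicate 1 of the Tem1WT/WT traction group, against 280 to 585 CPM in the other replicates of that group. The labels named no batch.

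Collagen chains are modified before they leave the cell. Prolyl 4-hydroxylase, an enzyme of alpha and beta subunits, turns prolines into hydroxyprolines, without which the triple helix is not stable at body temperature. Lysyl hydroxylases add a hydroxyl group to lysines, some of which then carry sugars and some of which take part in cross-links. Both kinds of hydroxylase use iron, oxoglutarate, oxygen and ascorbate. Lysyl oxidases are secreted copper enzymes that oxidize lysines and hydroxylysines of collagen and elastin, and the aldehydes formed then join neighbouring chains. Several of these genes, P4ha1, P4ha2, Plod2 and Lox among them, are known targets of hypoxia-inducible factor, and Lox and Plod2 are also known to respond to TGF-beta.

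The promoters are shown because several of these genes are known hypoxia targets and because 9 of the 10 genes rose with traction in Tem1WT/WT mice. Of the targets named above, P4ha1 and P4ha2 are among the promoters printed, and Plod2 and Lox are not. RefSeq sequence of GRCm38.p6 was at hand for 5 of the 10 genes, the 3 prolyl hydroxylase subunits, Plod1 and Plod3. Each line gives the 120 bases before the first RefSeq base of the gene, 5′ to 3′ on the strand of the gene. Capitals mark the core of the hypoxia response element, ACGTG or GCGTG, searched on both strands, so that CACGT and CACGC are marked too. The core ACGTG is also part of the E-box CACGTG.
P4ha1 (chr10:59323077-59323196, plus strand): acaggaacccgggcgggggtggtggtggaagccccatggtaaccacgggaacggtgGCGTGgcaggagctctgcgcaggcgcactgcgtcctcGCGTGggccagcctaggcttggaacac
P4ha2 (chr11:54100804-54100923, plus strand): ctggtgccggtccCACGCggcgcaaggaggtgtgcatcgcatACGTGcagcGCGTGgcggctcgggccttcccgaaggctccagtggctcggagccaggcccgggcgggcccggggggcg
P4ha3 (chr7:100285369-100285488, plus strand): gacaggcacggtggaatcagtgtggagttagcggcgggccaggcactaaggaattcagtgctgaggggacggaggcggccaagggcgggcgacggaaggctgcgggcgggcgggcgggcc
Plod1 (chr4:147936777-147936896, minus strand): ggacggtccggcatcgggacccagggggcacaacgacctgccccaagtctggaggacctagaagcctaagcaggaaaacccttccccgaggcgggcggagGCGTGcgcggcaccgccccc
Plod3 (chr5:136986899-136987018, plus strand): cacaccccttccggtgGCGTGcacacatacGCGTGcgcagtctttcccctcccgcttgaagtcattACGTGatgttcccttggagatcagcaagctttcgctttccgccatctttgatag

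P4ha1 had 2 cores in these 120 bases, P4ha2 and Plod3 had 3 each, Plod1 had 1 and P4ha3 had 0. In windows of 250 bases from the RefSeq promoter sequences, 4 of the 5 genes held a core, as did 38.6% of the 32851 promoters of that length. For P4ha1 and P4ha3 these windows run past the first RefSeq base used above and into the gene, to chr10:59323295 and chr7:100285519. Neither the AP-1 site (TGACTCA or TGAGTCA) nor the TEAD site (GGAATG or its complement) was found in the 5 windows of 250 bases, and 4.46% and 12.6% of all promoters held them. A match of letters is a description of the window and not a bound site.

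In Tem1WT/WT scars, traction raised most of the set. Of the 10 genes, 9 were called higher by edgeR's quasi-likelihood test at an adjusted p under 0.05, against 5.61% of all genes tested, and Loxl1 missed the threshold. The increases of the called genes ran from 2.11-fold for P4ha1 to 4.47-fold for Loxl3. For all 10 genes the 3 traction libraries lay above the 3 sham libraries, against 17.7% of all genes. The median log2 fold change of the 10 genes was 1.42, and that of all genes tested was −0.00939. Summed over the 10 genes, the level went from 1010 ± 181 CPM in sham to 2690 ± 710 CPM with traction (SD, n = 3). P4ha1 and Lox were also named by the study from these same libraries, so their increase here is no independent evidence of its direction.

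Of the prolyl hydroxylases, P4ha1 (Entrez 18451, chr10:59323197-59373304 on GRCm38.p6), which encodes the main alpha subunit in most cells, had 116, 102 and 125 CPM in the Tem1WT/WT sham scars. With traction it had 240, 231 and 254 CPM, in the tightest group of any member under traction, with a coefficient of variation of 4.8%. The groups were far apart, with a log2 fold change of 1.08 (SE 0.17, adjusted p = 0.0239, edgeR). P4ha2 (Entrez 18452, chr11:54100924-54131668), a second alpha subunit, had 61.9, 69.0 and 81.2 CPM in sham and 113, 159 and 236 CPM with traction. The traction libraries were spread widely, all above the sham group, and the log2 fold change was 1.26 (SE 0.25, adjusted p = 0.0278, edgeR). P4ha3 (Entrez 320452, chr7:100285489-100319701), the least abundant alpha subunit here, had 10.3, 17.1 and 26.4 CPM in sham and 44.5, 65.4 and 74.1 CPM with traction. It rose by 1.78 on the log2 scale (SE 0.34, adjusted p = 0.0278, edgeR), the largest value of the 3 subunits.

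Of the lysyl hydroxylases, Plod3 (Entrez 26433, chr5:136987019-136996646), which also has glycosyltransferase activity on hydroxylysine, had 42.4, 46.5 and 52.7 CPM in sham and 140, 95.3 and 133 CPM with traction. Its log2 fold change of 1.38 (SE 0.19, adjusted p = 0.0184, edgeR) had the smallest p of the 10 genes and stood at rank 19 of all genes tested. Plod1 (Entrez 18822, chr4:147909753-147936776), which acts on lysines within the helix, had 77.0, 71.5 and 77.0 CPM in sham and 132, 155 and 218 CPM with traction. The sham libraries lay close to each other, and the log2 fold change was 1.16 (SE 0.26, adjusted p = 0.0328, edgeR). Plod2 (Entrez 26432, chr9:92539636-92608428), which hydroxylates lysines of the telopeptides and so sets the type of cross-link, had 20.1, 38.0 and 43.1 CPM in sham and 51.5, 149 and 132 CPM with traction. Replicate 1 was the lowest library of Plod2 in both groups, and its traction value stood only just above the highest sham value. The log2 fold change of Plod2 was 1.72 (SE 0.41, adjusted p = 0.0355, edgeR).

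Of the lysyl oxidases, Lox (Entrez 16948, chr18:52516060-52529867), the founding member of the family, which acts on fibrillar collagen and elastin, had 282, 260 and 360 CPM in sham and 768, 864 and 1120 CPM with traction. Every traction scar had more than 2 times the highest sham value, and the log2 fold change was 1.61 (SE 0.36, adjusted p = 0.0329, edgeR). Loxl3 (Entrez 16950, chr6:83034205-83052566), the least abundant of the 4, had 14.6, 15.7 and 22.9 CPM in sham and 66.6, 69.1 and 102 CPM with traction. Its log2 fold change of 2.16 (SE 0.31, adjusted p = 0.0193, edgeR) was the largest of the 10 genes. Loxl2 (Entrez 94352, chr14:69608692-69695834), which also acts on basement membrane collagen, had 122, 185 and 207 CPM in sham and 327, 381 and 696 CPM with traction. It rose by 1.45 on the log2 scale (SE 0.34, adjusted p = 0.0334, edgeR). Loxl1 (Entrez 16949, chr9:58287723-58313212), known for its part in elastic fibre upkeep, had 118, 153 and 218 CPM in sham and 255, 282 and 529 CPM with traction. The groups did not overlap, but the spread was wide, and the log2 fold change of 1.13 (SE 0.40, adjusted p = 0.0867, edgeR) was not called.

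**Figure D1:**
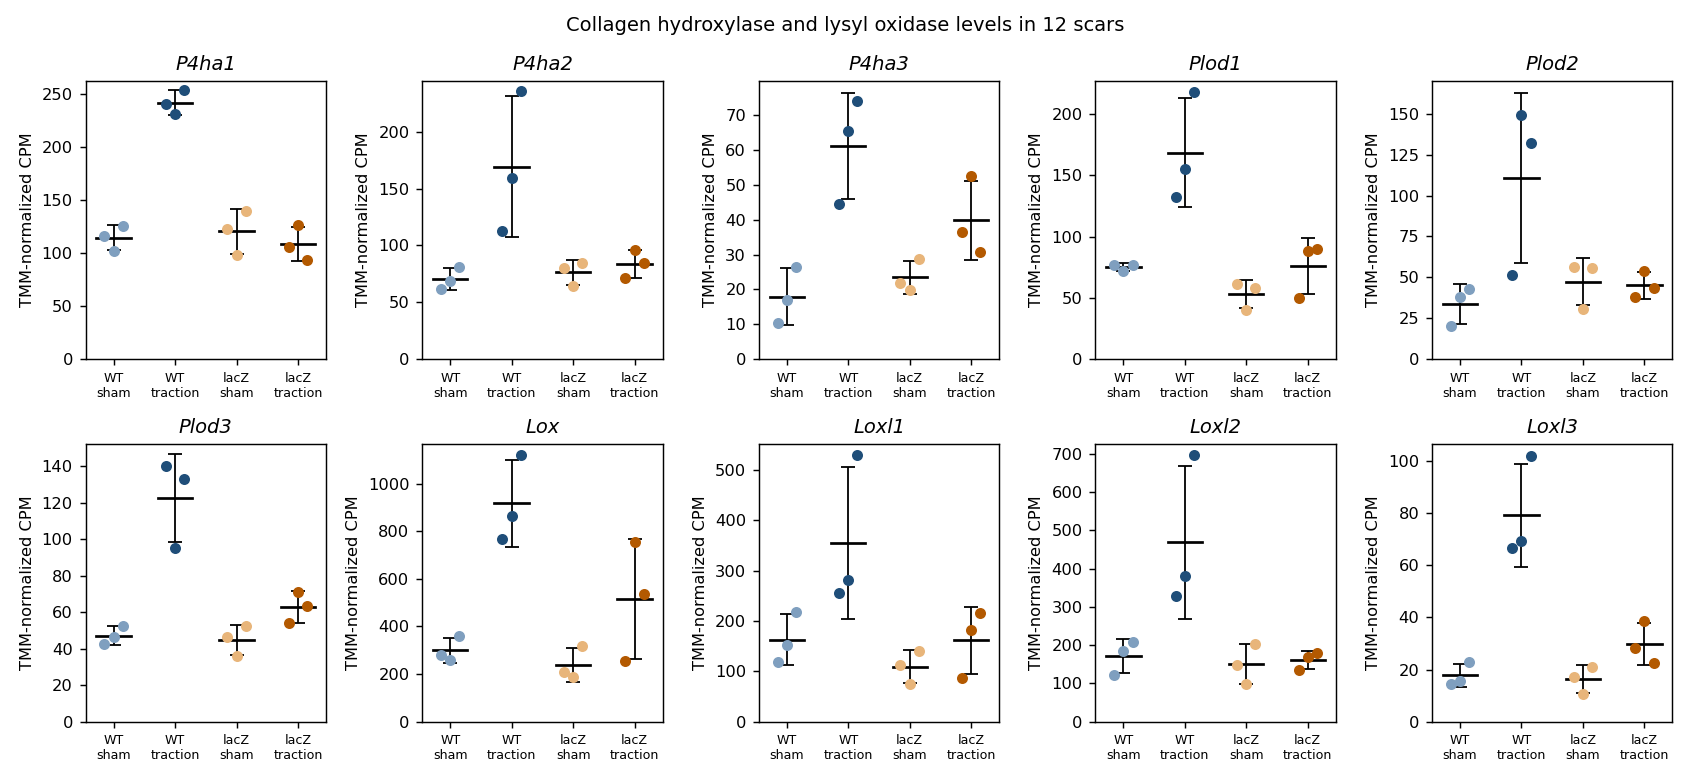
Levels of the 10 genes in the 12 scars, in TMM-normalized CPM on axes that start at 0, with 1 point per library, the group mean as a line and the SD as a bar (WT, Tem1WT/WT; lacZ, Tem1lacZ/lacZ). The Tem1WT/WT traction group had the highest mean for all 10 genes, and for 8 of them, P4ha3 and Plod2 being the exceptions, its 3 libraries lay above the other 9.

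The calls of this comparison changed with the libraries used, while no fitted value changed sign. With the 6 Tem1WT/WT libraries alone the test called 0 of the 10 genes and 0 genes of the whole table. Leaving out sham replicate 1 or sham replicate 2 of the Tem1WT/WT mice also gave 0 calls, leaving out replicate 3 of the Tem1lacZ/lacZ sham group gave 4, and leaving out traction replicate 3 or sham replicate 3 of the Tem1WT/WT mice gave 5 and 6. Over the whole table, 1725 genes were called in either direction with all libraries, 0 under each of the first 3 of these settings, and 169, 704 and 820 under the others. In the 3 settings with 0 calls the log2 fold changes of the 10 genes lay between 0.94 and 2.15, beside 1.08 to 2.16 with all libraries. DESeq2 called all 10 genes, against 11.9% of all genes.

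In Tem1lacZ/lacZ scars, no increase with traction was called for any of the 10 genes. The count was 0 of 10 with edgeR, DESeq2 and limma-voom, and edgeR called 0% of all genes higher, whereas DESeq2 called 23 and limma-voom 435 genes of the whole table in either direction. At an unadjusted p under 0.05, 4 of the 10 genes were higher, against 5.66% of all genes, and for 3 genes the groups did not overlap, against 6.77% of all genes. The median log2 fold change of the 10 genes was 0.51, below that in the Tem1WT/WT mice but above the median of all genes, which was −0.015.

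The 10 genes were spread out in this genotype. Lox had the largest value: 207, 189 and 318 CPM in sham and 255, 755 and 535 CPM with traction, a log2 fold change of 1.11 with a 95% interval of 0.33 to 1.89 (unadjusted p = 0.0092, adjusted p = 0.598, edgeR). Traction replicate 1 fell within the sham range and the other traction libraries were well above it. Loxl3 had 17.3, 10.5 and 21.1 CPM in sham and 28.4, 38.5 and 22.4 CPM with traction, and its fitted fold was 1.83 with an interval of 1.16 to 2.88. P4ha3 had 21.8, 19.9 and 28.8 CPM in sham and 36.5, 52.6 and 30.7 CPM with traction, with a fold of 1.70 (interval 1.03 to 2.82). Plod3 had 46.2, 35.8 and 52.2 CPM in sham and 54.0, 71.2 and 63.3 CPM with traction, with a fold of 1.40 (interval 1.05 to 1.88). For Loxl3, P4ha3 and Plod3 the groups were next to each other without overlap, and none of the adjusted p values was under 0.598 (edgeR).

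The other 6 genes had intervals that included no change. P4ha1 had 123, 98.0 and 140 CPM in sham and 106, 126 and 93.4 CPM with traction, so that its interval of 0.701- to 1.16-fold left out the 2.11-fold increase of the Tem1WT/WT scars. P4ha2 had a fold of 1.10, with an interval of 0.761 to 1.59. Plod2 had a fold of 0.951, and its interval of 0.516 to 1.75 was wide. Loxl2 had 148, 99.8 and 203 CPM in sham and 134, 168 and 179 CPM with traction, with a fold of 1.07 (interval 0.645 to 1.76). Plod1 and Loxl1 had folds of 1.43 and 1.48, with intervals of 0.973 to 2.11 and 0.808 to 2.71.

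**Figure D2:**
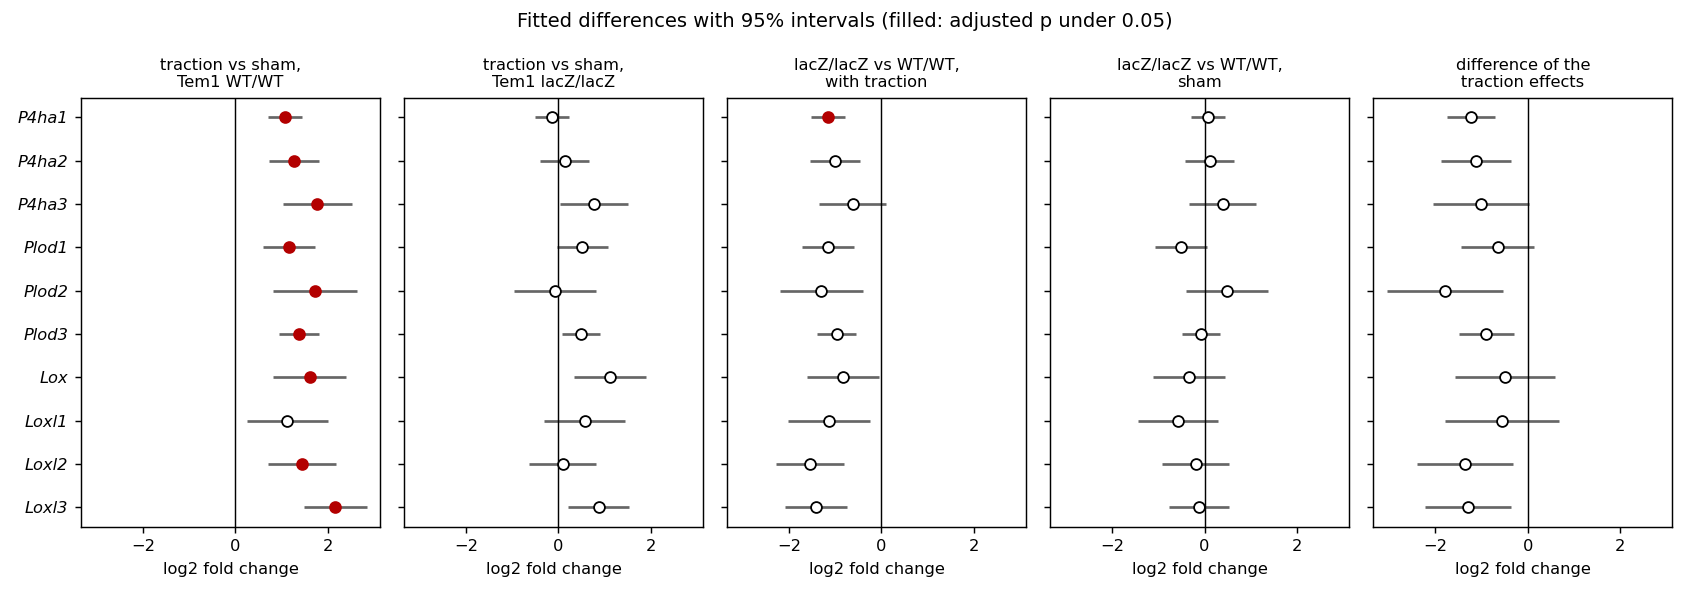
Fitted log2 fold changes of the 10 genes with their 95% intervals in the 4 comparisons between groups and in the difference of the traction effects (Tem1lacZ/lacZ minus Tem1WT/WT). Filled points had an adjusted p under 0.05 in edgeR over all genes: 9 genes in the first panel and P4ha1 in the third.

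Between the genotypes under traction, all 10 genes had lower levels in the Tem1lacZ/lacZ scars, and 1 was called. P4ha1 was lower by 1.15 on the log2 scale, with a fold of 0.45 and an interval of 0.348 to 0.582 (log2 fold change −1.15, SE 0.17, adjusted p = 0.0335, edgeR), where 0.0955% of all genes were called lower. Its Tem1lacZ/lacZ traction libraries reached 126 CPM at most and its Tem1WT/WT traction libraries started at 231 CPM. At an unadjusted p under 0.05, 9 of the 10 genes were lower, P4ha3 being the exception, against 15.1% of all genes. For 8 genes the groups did not overlap, against 13.7% of all genes. The median log2 fold change was −1.14, beside 0.01 for all genes. This comparison and the traction comparison in Tem1WT/WT mice share the 3 Tem1WT/WT traction libraries, so the values of one are not independent of the other.

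The further genes of this comparison ran from a log2 fold change of −0.62 for P4ha3 to −1.55 for Loxl2. Loxl2 (SE 0.34), Loxl3 (−1.42, SE 0.30), Plod1 (−1.15, SE 0.26), Plod3 (−0.97, SE 0.19) and P4ha2 (−1.01, SE 0.25) had adjusted p values of 0.0834 to 0.0918 in edgeR. Plod2 (−1.30, SE 0.41) and Loxl1 (−1.14, SE 0.40) had adjusted p values of 0.104 and 0.125 in edgeR. Lox, at −0.83 (SE 0.35), and P4ha3, at −0.62 (SE 0.33), had the smallest differences and adjusted p values of 0.167 and 0.256 in edgeR. DESeq2, the tool named by the study, called 8 of the 10 genes lower here, all but P4ha3 and Lox, against 8.01% of all genes. The edgeR call of P4ha1 was kept under 7 of 21 alternative settings, with adjusted p values from 7.3e-08 to 0.285, and its fitted value stayed between −1.27 and −1.02. Leaving out any 1 library except replicate 2 of the Tem1lacZ/lacZ sham group or replicate 2 of the Tem1WT/WT traction group ended the call, with adjusted p values up to 0.225 in edgeR.

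Whether the traction effect itself differed between the genotypes was tested as an interaction. With edgeR 0 of the 10 genes were called, and DESeq2 called P4ha1 alone, against 0.251% of all genes called lower. At an unadjusted p under 0.05 in edgeR, 6 genes had a smaller traction effect in Tem1lacZ/lacZ mice, against 4.46% of all genes: P4ha1, P4ha2, Plod2, Plod3, Loxl2 and Loxl3. All 10 estimates were negative, from −0.50 for Lox to −1.79 for Plod2. P4ha1 had an interaction of −1.23 (SE 0.24) with an unadjusted p of 0.000291, rank 7 of all genes tested, an adjusted p of 0.548 in edgeR and of 0.00222 in DESeq2. Its adjusted p ran from 0.00222 to 0.825 over 20 alternative settings. For Lox the interval of the interaction was −1.58 to 0.59 on the log2 scale, so a difference of either sign was within it. Loxl1 (−0.56, interval −1.79 to 0.67) and Plod1 (−0.65, interval −1.44 to 0.15) also had intervals that included 0.

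In the sham groups the genotypes did not differ by a called amount in any of the 10 genes. The count was 0 of 10 with edgeR, DESeq2 and limma-voom, where edgeR called 0.0053% of all genes lower, and DESeq2 and limma-voom called 27 genes and 1 gene of the whole table in either direction. At an unadjusted p under 0.05 in edgeR the count was also 0, where 6.62% of all genes were lower. The estimates ran from −0.58 for Loxl1 to 0.49 for Plod2. Plod1 was the 1 gene whose groups did not overlap, against 13.8% of all genes, with 61.1, 40.4 and 57.6 CPM in Tem1lacZ/lacZ sham scars below the 71.5 to 77.0 CPM of the Tem1WT/WT sham scars (log2 fold change −0.50, interval −1.06 to 0.06). For P4ha1 the interval of 0.816- to 1.36-fold bounded any difference, whereas for Plod2 it was 0.761- to 2.59-fold. The sham libraries are also the controls of the traction comparisons.

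Levels were compared between genes per kilobase of exon. In Tem1WT/WT sham scars the order ran from Lox at 62.9 ± 11 CPM per kilobase through Loxl1 at 49.3 ± 15.4, Loxl2 at 31.7 ± 8.17 and P4ha1 at 27.8 ± 2.90 (SD, n = 3). The libraries of each of these overlapped those of the next. A gap followed, and then P4ha2 at 11.3 ± 1.56, Plod1 at 11.1 ± 0.469 and Plod3 at 10.4 ± 1.14, which overlapped each other. After a second gap Plod2, P4ha3 and Loxl3 were lowest and overlapped in turn, at 6.25 ± 2.24, 5.71 ± 2.58 and 3.86 ± 0.982 CPM per kilobase. In Tem1WT/WT traction scars the libraries of Lox lay just above those of Loxl1, at 161 CPM per kilobase or more against 160 or less, with means of 192 ± 37.8 and 108 ± 45.8 CPM per kilobase. The 6 lowest genes lay between 17.3 ± 4.34 for Loxl3 and 27.2 ± 5.35 for Plod3, each overlapping its neighbour.

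The make-up of each family was read from the same scale, as the share of a gene in the sum of its family per library, with no test. P4ha1 held 62.3% ± 5.17 of the prolyl hydroxylase level in Tem1WT/WT sham scars and 56.4% ± 7.28 with traction, and 59.7% ± 0.675 and 50.3% ± 2.23 in Tem1lacZ/lacZ scars. P4ha3 held 12.4% ± 4.21 and 18.4% ± 2.46 in Tem1WT/WT scars, and 15.3% ± 1.15 and 23.9% ± 2.73 in Tem1lacZ/lacZ scars. The shares of P4ha1 and P4ha3 did not overlap between sham and traction in the Tem1lacZ/lacZ mice, whereas P4ha2 stayed near 25.0% to 25.7% in the 4 groups. Among the lysyl oxidases Loxl3 held 2.60% ± 0.118 in Tem1WT/WT sham and 4.32% ± 0.274 in Tem1WT/WT traction scars, and Lox held 43.1% ± 5.2 and 48.5% ± 4.90. Among the lysyl hydroxylases, replicates under traction in Tem1WT/WT mice were far apart, with Plod2 at 15.9% to 38.6% of the family.

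**Figure D3:**
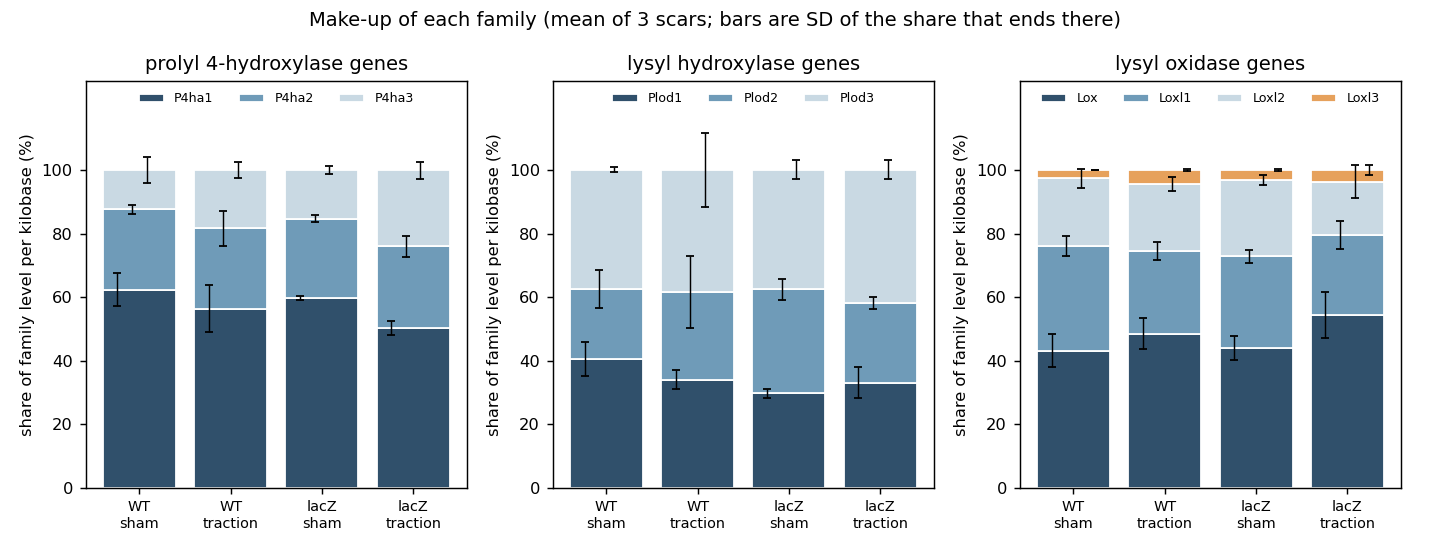
Share of each gene in its family, from CPM per kilobase of exon, as stacked means of 3 scars per group, with the SD of each share drawn at the top of its segment. P4ha3 held a larger mean share with traction than in sham in both genotypes, and Loxl3 stayed under 5% of the lysyl oxidases on average.

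The levels of the main fibrillar collagen transcripts were read beside those of the enzymes. With traction in Tem1WT/WT mice, none of Col1a1 (log2 fold change 1.68), Col1a2 (1.48) and Col3a1 (1.08) was called, with adjusted p values of 0.0553, 0.0722 and 0.105 in edgeR. Col1a1, Col1a2 and Col3a1 summed to 29200 ± 7110 CPM in Tem1WT/WT sham and 70500 ± 33100 CPM in Tem1WT/WT traction scars, and to 19200 ± 5310 and 34400 ± 14300 CPM in the Tem1lacZ/lacZ groups (SD, n = 3). Per 1000 counts of these collagens, the prolyl hydroxylases had 7.13 ± 1.34 counts in Tem1WT/WT sham and 7.43 ± 2.47 in Tem1WT/WT traction scars. The lysyl hydroxylases had 5.47 ± 0.839 and 6.27 ± 1.86 counts, and the lysyl oxidases 22.5 ± 2.14 and 27.7 ± 7.37. In the Tem1lacZ/lacZ mice the prolyl hydroxylases had 11.8 ± 2.26 counts per 1000 collagen counts in sham and 7.70 ± 3.57 with traction. There the lysyl hydroxylases had 7.66 ± 0.891 and 5.81 ± 1.72 counts, and the lysyl oxidases 27.4 ± 7.56 and 25.6 ± 2.02. These ratios overlapped between sham and traction in both genotypes, and they were not tested. Between the sham groups those of the prolyl hydroxylases did not overlap (6.24 to 8.67 in Tem1WT/WT, 9.24 to 13.3 in Tem1lacZ/lacZ mice). Nor did those of the lysyl hydroxylases (4.81 to 6.41 and 6.72 to 8.49), while those of the lysyl oxidases did. This was not particular to these families, since the ratios of the beta subunit gene P4hb did not overlap either (18.4 to 21.3 and 25.0 to 41.0). The collagen sum, which divides every ratio, had the lower mean in Tem1lacZ/lacZ sham scars, and its part in the separation was not tested.

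The 10 genes varied together from scar to scar. This is not read as particular to them, since r was not taken between pairs of other genes. Over the 12 libraries the 45 pairs of members had Pearson's r between 0.669 and 0.964 on log2 CPM, with a median of 0.872. The pairs share libraries and the difference between groups, and after each group's mean was taken off, r ran from 0.164 to 0.894 with a median of 0.635. Within the Tem1WT/WT traction group replicate 3 was highest for 8 of the 10 genes, and it also had the most Cd248, at 337 CPM, and the most Col1a1, at 23400 CPM. In the Tem1lacZ/lacZ sham group replicate 2 was lowest for all 10 genes.

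The genes most like each member over the 12 libraries are given as a description. P4ha1 was nearest to Necap1 (r = 0.972), Tsku (0.960) and Ap1m1 (0.948), and P4ha2 to Maged1 (0.979), Rcn3 (0.973) and Lman1 (0.973), of which the last is a cargo receptor of the secretory pathway. P4ha3 was nearest to Ddah1 (0.965), Phf10 (0.955) and Col6a4 (0.955), and Plod1 to Naglu (0.984), Sh3pxd2b (0.983) and Pigs (0.982). Plod2 had the least close neighbours, Cald1 (0.940), Gjc1 (0.934) and Armcx6 (0.923), and Plod3 had Adra2a (0.985), Gpr176 (0.984) and Fhod1 (0.984). Lox was nearest to Efemp2 (0.977), which encodes fibulin-4, a protein that brings Lox to elastin, and then to Synpo (0.972) and Lix1l (0.970). Loxl1 was nearest to Ergic1 (0.998), Kctd17 (0.989) and Nkain1 (0.989), Loxl2 to Tmem263 (0.966), Itga5 (0.962) and Anxa6 (0.962), and Loxl3 to Epb41l3 (0.970), Aldh1l2 (0.970) and Uhrf2 (0.969).

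The partners of the enzymes were read from lists of textbook roles. Of 14 genes for collagen folding and secretion, 7 rose with traction in Tem1WT/WT mice and 0 fell (median log2 fold change 0.93), against 5.61% and 3.54% of all genes called higher and lower. P4hb, the beta subunit of the collagen prolyl 4-hydroxylases, went from 571 ± 100 to 1270 ± 203 CPM (log2 fold change 1.15, SE 0.19, adjusted p = 0.0242, edgeR). The others of the 4 largest were Fkbp10, a prolyl isomerase that assists telopeptide lysine hydroxylation (1.66), and the prolyl 3-hydroxylase genes P3h1 (1.44) and P3h3 (1.30). In Tem1lacZ/lacZ mice 0 of the 14 were called with traction and the median was 0.30.

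Of 7 genes tested for procollagen processing, 2 rose and 1 fell with traction in Tem1WT/WT mice. For this list and the others of this paragraph, the shares of all genes were again 5.61% called higher and 3.54% called lower. Bmp1, the proteinase that cleaves the C-propeptide and also activates pro-lysyl oxidase, rose from 179 ± 38.8 to 558 ± 164 CPM (log2 fold change 1.64, SE 0.28, adjusted p = 0.0252, edgeR). Pcolce, an enhancer of that proteinase, rose by 1.04 on the log2 scale, to 362 ± 153 CPM with traction. Its relative Pcolce2 fell by 2.46, from a widely spread 45.8 ± 36.2 CPM in sham to 8.33 ± 1.7 CPM. Of 6 further genes of the lysyl oxidase family and its partners 1 rose, Efemp2, from 42.8 ± 13 to 139 ± 22.1 CPM. Loxl4, the remaining family member and named after its values were seen, had 31.0 ± 3.62 CPM in sham and 34.4 ± 3.47 CPM with traction (log2 fold change 0.15, SE 0.18). Of 7 substrate genes 2 rose, Col5a1 (1.90, 2460 ± 1390 CPM with traction) and Col5a2 (1.30, 4260 ± 1310 CPM with traction). Of 6 genes for the supply of ascorbate and copper 0 were called, with 0 at an unadjusted p under 0.05 in edgeR. Of these 6, Slc23a2, an ascorbate transporter, had 43.1 ± 2.47 CPM in sham and 52.2 ± 6.92 CPM with traction, and Atp7a, a copper pump, had 100 ± 9.44 and 92.1 ± 9.94 CPM.

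Lists of hypoxia and TGF-beta response genes were read beside the enzymes. Of 12 hypoxia genes 3 rose with traction in Tem1WT/WT mice, against 5.61% of all genes called higher. These were the glucose transporter gene Slc2a1 (log2 fold change 1.74), Ndrg1 (1.14) and Ankrd37 (0.76). The traction scars were spread widely for Slc2a1, at 269 ± 198 CPM. The median of the 12 was 0.84 in Tem1WT/WT and −0.32 in Tem1lacZ/lacZ mice, with 0 called in the latter. In the interaction 8 of the 12 had an unadjusted p under 0.05 and lower values, against 4.46% of all genes, and 0 were called. Of 10 TGF-beta genes 5 rose in Tem1WT/WT mice, against the same 5.61% of all genes. Among them were Ltbp2 (2.76), Tgfb1 (1.68), Tgfbi (1.59) and Ctgf (0.84), the last of these outside the naming rule. With traction Ltbp2 had 103 ± 107, Tgfb1 115 ± 63.9 and Tgfbi 702 ± 388 CPM, so their scars were spread widely. The median of the 10 was 0.99, beside 0.04 with 0 called in Tem1lacZ/lacZ mice. The 7 substrate genes had medians of 1.30 and 1.19 in the 2 genotypes, but gene by gene they differed. The traction effect was smaller by value in Tem1lacZ/lacZ mice for 5 and larger for 2. The 2 were Col11a1 (0.105 in Tem1WT/WT and 1.56 in Tem1lacZ/lacZ mice) and Eln (−0.128 and 0.691). In the interaction 0 of the 7 had an unadjusted p under 0.05 in edgeR.

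Between the genotypes under traction 0 genes of these 7 lists were called by edgeR. The smallest p of the folding list belonged to P4hb (log2 fold change −0.79, adjusted p = 0.0891, edgeR) and Fkbp10 (−1.15, adjusted p = 0.0951, edgeR), and those of the processing list to Bmp1 (−1.38) and Adamts14 (−1.59). Efemp2 had −1.13 and Fn1 had −1.53, Col5a1 had −1.45 and Col5a2 had −1.0, and Slc23a2 had −0.49 and Atox1 had 0.44. Vegfa (−1.41) and Ankrd37 (−0.98) had the smallest p of the hypoxia list. Ctgf (−1.37, adjusted p = 0.0574, edgeR) had the smallest p of the TGF-beta list. The medians of the lists ran from −1.01 for the TGF-beta genes to 0.12 for the cofactor genes, beside −1.14 for the 10 enzymes.

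**Figure D4:**
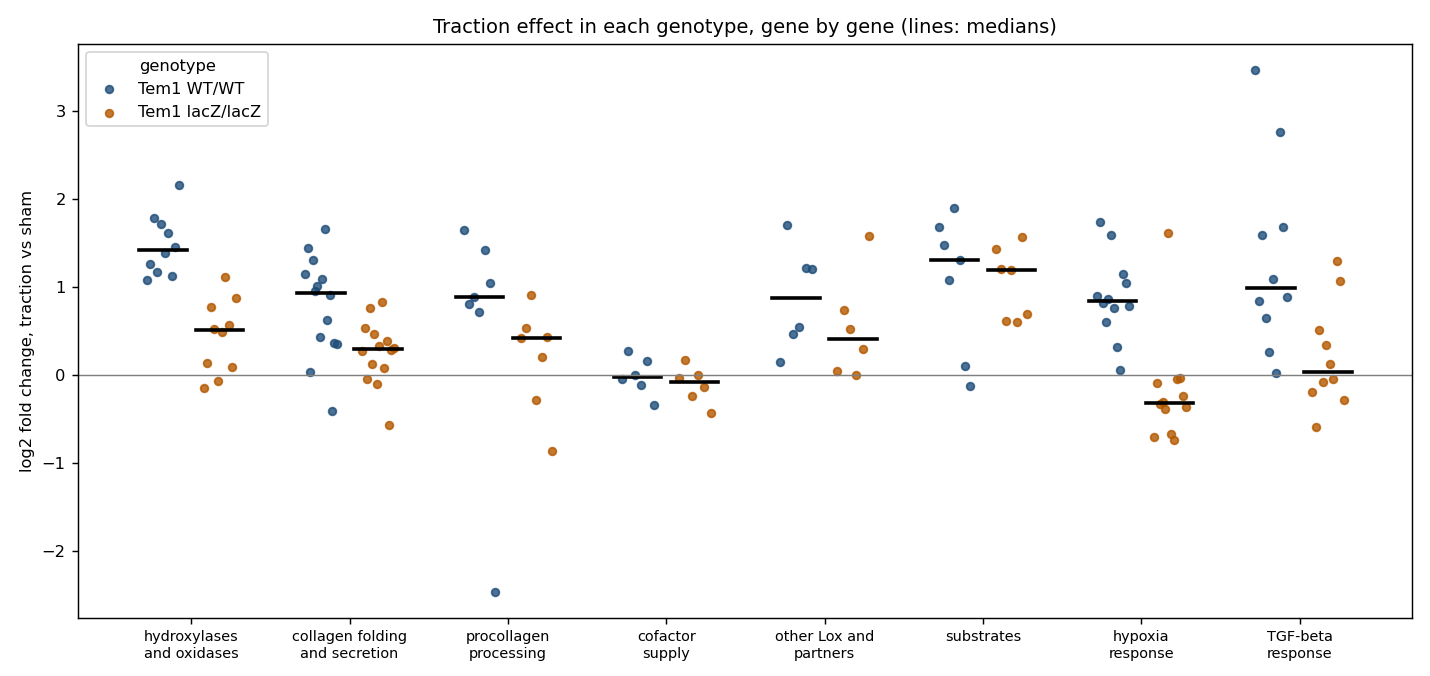
Log2 fold change of traction against sham for each gene of the enzyme set and of 7 lists, with Tem1WT/WT mice in blue, Tem1lacZ/lacZ mice in orange and the median of each as a line. The medians of the 7 substrates were 1.30 and 1.19, although the effect was smaller by value in Tem1lacZ/lacZ mice for 5 of them and larger for 2. Those of the hypoxia genes lay on either side of 0 (0.84 and −0.32).

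Markers of cell types moved beside the enzymes to different degrees. The 8 fibroblast markers summed to 4290 to 6730 CPM in Tem1WT/WT sham and 5760 to 6840 CPM in Tem1WT/WT traction scars, with 1 of 8 called higher (Pdgfra, log2 fold change 1.45) and a median log2 fold change of 0.21. Over all genes tested, 5.61% were called higher in this comparison. The markers named in this paragraph were chosen after their values were seen. The fibroblast markers summed to 4810 to 7370 and 5020 to 5650 CPM in the Tem1lacZ/lacZ groups. The ranges of the fibroblast sum overlapped between sham and traction, and those of the 10 enzymes did not (864 to 1210 against 2140 to 3490 CPM in Tem1WT/WT mice). Dcn was the largest part of the fibroblast sum, at 2930 ± 625 CPM in Tem1WT/WT sham and 2760 ± 27.1 CPM with traction. Pdgfra weighed little in it, at 219 ± 25.5 and 598 ± 293 CPM. By value 4 of the 8 markers were higher with traction in Tem1WT/WT mice and 4 were lower. Of 6 endothelial markers 4 (Pecam1, Cdh5, Tie1 and Emcn) rose with traction in Tem1WT/WT mice, from a sum of 298 to 452 CPM to one of 771 to 890 CPM. In Tem1lacZ/lacZ mice that sum was 244 to 423 CPM in sham and 367 to 591 CPM with traction. There 0 of the 6 were called, and 3 were higher at an unadjusted p under 0.05 in edgeR, against 5.66% of all genes. Of 5 neutrophil markers tested 4 (S100a8, S100a9, Csf3r and Cxcr2) rose in Tem1WT/WT mice, from 31.6 to 88.4 CPM to 280 to 6720 CPM. In the Tem1lacZ/lacZ groups the neutrophil sum was 144 to 184 CPM in sham and 236 to 517 CPM with traction, with the defining marker Ly6g at 0 in some library of each group but the Tem1WT/WT traction group. The macrophage markers had 1 of 6 called higher (Cd14), and their sum was 1990 to 3370 CPM in sham and 3200 to 4490 CPM with traction in Tem1WT/WT mice. The 5 hair follicle markers and the 5 skeletal muscle markers were lower with traction in Tem1WT/WT mice by value, with sums of 7420 to 14700 against 2340 to 4000 CPM and of 617 to 7410 against 165 to 1170 CPM, and 0 of either were called by edgeR, 5 of each having an unadjusted p under 0.05. Over the 18853 genes tested, 2763 were lower at that unadjusted threshold. Of the pericyte, keratinocyte, adipocyte and Schwann markers 0 were called by edgeR, with 0, 1, 0 and 2 of them at an unadjusted p under 0.05. The part of these cell types in the levels of the enzymes was not tested. Without Tem1WT/WT traction replicate 1, the library with the highest neutrophil sum, 8 of the 10 enzymes and 360 genes of the whole table were called.

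**Figure D5:**
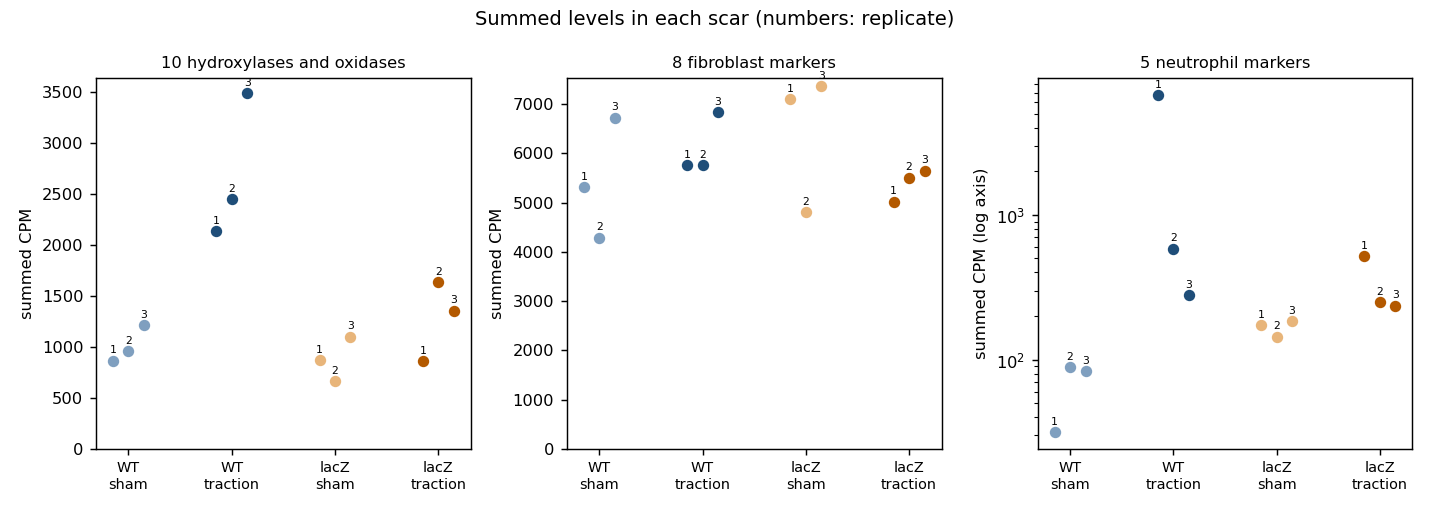
Sums over the 10 enzymes, over 8 fibroblast markers and, on a log axis, over 5 neutrophil markers, in CPM, with 1 point per scar numbered by replicate. The enzyme sums of Tem1WT/WT traction scars lay at 2140 to 3490 CPM above all others. The fibroblast sums, of which Dcn was the largest part, overlapped between the 4 groups.

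Some of these genes share exon sequence with a gene on the other strand. Plod3 shares 529 exon bases, or 11.7% of its exons, with Znhit1, and Loxl3 shares 535 bases, or 11.6%, with Htra2. The strand setting of the counting is not given in the sources used here, so reads in the shared bases cannot be told apart. With traction in Tem1WT/WT mice Znhit1 had a log2 fold change of 0.31 (SE 0.20, adjusted p = 0.328, edgeR) and Htra2 one of 0.74 (SE 0.20, adjusted p = 0.0427, edgeR), both below those of Plod3 and Loxl3. Htra2 had 23.8 ± 4.61 CPM in Tem1WT/WT traction scars, where Loxl3 had 79.4 ± 20 CPM. In Tem1WT/WT sham scars the 2 were closer, at 14.2 ± 3.07 CPM for Htra2 and 17.8 ± 4.52 CPM for Loxl3. Over the 12 libraries Htra2 reached at most 132% of the count of Loxl3, and Znhit1 at most 56.4% of that of Plod3. Loxl2 shares 301 bases with Gm27177, which had at most 5 counts.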

How the data were processed

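RNA from part of each scar (RNeasy) was made into stranded poly(A) libraries (TruSeq Stranded mRNA) and sequenced as paired ends. The authors trimmed reads with fastp 0.20.0, aligned them to GRCm38 with HISAT2 2.1.0 and counted them with featureCounts 2.0.0. They deposited raw counts per gene, without normalization. The annotation, strand setting and handling of multimapping reads are not given in the sources used here.

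Groups came from the labels. Genes were kept by filterByExpr (minimum count 10) and scaled by TMM in edgeR 4.0.16 (R 4.3.3). A quasi-likelihood model with 4 groups, 12 libraries and 8 residual degrees of freedom, robust, two-sided, was fitted to 18853 genes, with Benjamini-Hochberg adjustment over all of them and a threshold of 0.05. Intervals are 95% intervals of the model. Library totals had a median of 48173798, so counting error is small beside the spread between scars, a biological coefficient of variation of 34.2%. Log2 CPM used a prior count of 2, and lengths came from GENCODE vM21 exons. Entrez identifiers, coordinates and promoters came from RefSeq for GRCm38.p6. DESeq2 1.42.0, limma 3.58.1 (voom), other scalings and filters, a replicate block and leaving out each library were alternatives. The code was tested on simulated data.

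The 10 genes, the lists and the tests were chosen with earlier results of these data known. Named by rule were all 10 genes, per list the called genes (at most the 4 largest log2 fold changes, or the 2 smallest p where none was called), and the 3 genes most like each member. A gene that this rule would name in the TGF-beta list is not reported here. Per the study's methods, RNA was taken from 3 scars in each group, so the p-values measure the spread between scars. No pair of libraries of a group was a copy. No other assay of the study was analysed here.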

Additional observations from a re-analysis of the deposited data

Results flagged for a closer look

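The traction effect on P4ha1 differed between the genotypes by DESeq2's test of the interaction and not by edgeR's. The fitted difference, Tem1lacZ/lacZ minus Tem1WT/WT, was −1.23 on the log2 scale (SE 0.24), with an adjusted p of 0.00222 in DESeq2 and of 0.548 in edgeR. P4ha1 went from 114 ± 11.9 to 242 ± 11.7 CPM with traction in Tem1WT/WT scars and from 120 ± 21.3 to 109 ± 16.6 CPM in Tem1lacZ/lacZ scars (SD, n = 3). The estimate lay between −1.35 and −1.06 under 20 alternative settings, and its adjusted p in them ran from 0.00222 to 0.825. Groups of 3 are too small to test for a single outlying scar.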

How the results depend on the processing

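Of the 10 genes, 9 were called higher with traction in Tem1WT/WT mice. The count was 0 with the libraries of the compared groups alone and 0 at an adjusted p under 0.01, when 0 genes of the whole table were called in either case, and 0 to 9 when 1 library was left out (0 without Tem1WT/WT sham replicate 1 or 2). With 1 library left out, 0 to 2861 genes of the whole table were called. The count was 8 to 10 under the other settings (748 to 4189 genes of the whole table), among them 10 with the replicate block (1467 genes). Between the genotypes under traction 1 of the 10 genes was called, and 20 of the whole table. The count was 0 with upper quartile normalization, limma-voom, the replicate block, the compared groups alone or an adjusted p under 0.01 (0 to 16 genes of the whole table). It was 8 with DESeq2 and 6 at an adjusted p under 0.10, when 2309 and 1386 genes of the whole table were called. With 1 library left out it was 0 to 6, and 6 without Tem1WT/WT traction replicate 2, when 1421 genes of the whole table were called. The interaction gave 0 calls, and 1 with DESeq2, which called 69 genes of the whole table. The cause of these differences was not tested. Traction in Tem1lacZ/lacZ mice and genotype in the sham groups gave 0 under every setting run.

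Of 210 log2 fold changes per comparison under alternatives (200 for the interaction), signs turned for 5 with traction in Tem1lacZ/lacZ mice and 6 between the sham groups, all on leaving out 1 library. With traction in Tem1lacZ/lacZ mice the ranges were −0.27 to 0.0059 for P4ha1, −0.28 to 0.11 for Plod2 and −0.10 to 0.40 for Loxl2. Between the sham groups they were −0.065 to 0.19 for P4ha1, −0.22 to 0.047 for Plod3, −0.48 to 0.018 for Loxl2 and −0.36 to 0.11 for Loxl3. With upper quartile normalization the median log2 fold change of all genes was −0.12 for traction in Tem1WT/WT mice, beside −0.0094 with TMM. For genotype under traction it was 0.14, beside 0.014 with TMM. Same-numbered libraries of different groups had deviations with r between −0.324 and 0.25 over 18 pairs, 15 of them positive and 8 over 0.1, beside a median of −0.0192 for other pairs. The numbers were not read as pairs, since not every pair was over 0.1. That rule is strict, and whether same-numbered scars shared a batch was not tested. Replicate 3 was highest for 10 of the 10 genes in Tem1WT/WT sham and for 8 in Tem1WT/WT traction scars. In Tem1lacZ/lacZ mice replicate 3 was highest for 8 genes in sham and for 3 with traction. Of the 12 libraries, 2 had their own number as the closest library of every other group. Depth did not limit these genes, whose lowest count was 441.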
